A study of Mus musculus with 13 samples.

Results

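Barcodes of the developing mouse heart that carried smooth muscle transcripts were examined, with limits on the cardiomyocyte gene Tnnt2 and on named endothelial and pericyte genes. Of 41586 heart barcodes, or of 14212 non-myocyte barcodes, 1319 met the selection. A barcode was kept when it held at least 2000 UMIs (unique molecular identifiers, which count captured transcripts) and 500 genes. It was taken as a non-myocyte when Tnnt2, the cardiac troponin T gene, stood under 1000 CPM (UMIs of the gene scaled to a fixed total of UMIs in that barcode). A member further held at most 1 UMI of the endothelial genes Pecam1 and Cdh5, at least 10 UMIs of Acta2 and Tagln, at least 3 UMIs of Myh11, Eln and Cnn1, and at most 1 UMI of the pericyte genes Kcnj8 and Higd1b. The members were thus selected on their measured levels of 10 genes. They numbered 266 and 337 in the replicates of E12.5, 98 and 84 in those of E14.5, 54 and 48 in those of E16.5, and 432 on postnatal day 3 (P3). The proposed name of the group was vascular and outflow smooth muscle. In most members no UMI of Myh11, the defining gene of that name, was found, as described below. The members are therefore called Acta2- and Tagln-high members here and are given no cell type name.

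Vascular smooth muscle contracts through smooth muscle actin (Acta2) sliding on smooth muscle myosin (Myh11), with calponin (Cnn1) and transgelin (Tagln) on the actin filaments, and in the great arteries it also lays down elastin (Eln). In the embryo, smooth muscle of the outflow vessels arises from neural crest and from heart progenitors, and that of the coronary arteries largely from the epicardium. Acta2 and Tagln are not restricted to it: immature cardiomyocytes, mesenchyme of the endocardial cushions and activated fibroblasts also use them.

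All hearts came from wild-type C57Bl/6J mice without treatment, at E12.5, E14.5 or E16.5 (embryonic days, E) or at P3, and were profiled with droplet-based single-cell RNA sequencing. Each embryonic stage had 2 libraries. The labels also list 2 samples of P3, deposited together in 1 matrix whose barcode suffixes separate 2 wells. Which well is which sample, and whether the wells are separate pools of hearts, is not given in the sources used here. The study's methods name batch differences at this stage, seen by eye, and whether those batches are the wells is not given either. The wells were summed and P3 was left out of the tests. A level at P3 is thus a sum over wells that can differ, as the share of members and 7 genes given apart below did. P3 hearts had been cut out at the aortic root, and thymus, lung and vessels such as the venae cavae were trimmed away. How many hearts were pooled per library is not given in the sources used here. The p-values below measure the spread between 2 libraries of a stage, which are described as biological replicates. An embryonic heart library held 67141166 to 136646866 UMIs and 4318 to 6760 kept barcodes, the P3 matrix held 158627277 UMIs and 10116 kept barcodes over both wells, and the median member held 11130.5 UMIs at P3 and 12267 to 19048.5 UMIs in the embryonic libraries. A pair of libraries shared 23 to 100 barcode sequences, at most 1.48% of either, and no barcode sequence was a member in both. Replicates differed in erythroid RNA: members of E14.5 replicate 2 held 35332 CPM of globin transcripts against 1181 CPM in replicate 1, and those of E16.5 replicate 1 held 14654 CPM against 1156 CPM in replicate 2. Without barcodes above 10% globin (3 and 1 members of these libraries) the values were 988 and 2053 CPM.

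The promoters of Acta2 and Cnn1, from the required sums, and of Myl9, a myosin light chain that the selection did not use, are shown. Smooth muscle genes are classically bound by serum response factor at the CArG box, here searched on both strands, where the motif reads alike. Each run is the 250 bases before the start of the gene on its own strand, 5′ to 3′, taken from RefSeq on GRCm38.p6. The positions are chr19:34255374-34255623 (minus strand) for Acta2, chr9:22099003-22099252 (plus strand) for Cnn1 and chr2:156775214-156775463 (plus strand) for Myl9, all upstream of the first exon. Capitals mark an exact match to the CArG box.
Acta2: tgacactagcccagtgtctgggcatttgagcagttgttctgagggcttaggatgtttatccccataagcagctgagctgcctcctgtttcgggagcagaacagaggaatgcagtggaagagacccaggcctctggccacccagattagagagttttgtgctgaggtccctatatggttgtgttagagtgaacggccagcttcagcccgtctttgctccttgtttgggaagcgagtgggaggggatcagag
Cnn1: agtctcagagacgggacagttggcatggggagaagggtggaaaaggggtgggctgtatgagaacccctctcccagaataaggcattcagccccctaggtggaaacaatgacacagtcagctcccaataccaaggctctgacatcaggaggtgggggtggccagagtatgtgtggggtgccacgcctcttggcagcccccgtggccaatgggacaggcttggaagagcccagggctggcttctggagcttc
Myl9: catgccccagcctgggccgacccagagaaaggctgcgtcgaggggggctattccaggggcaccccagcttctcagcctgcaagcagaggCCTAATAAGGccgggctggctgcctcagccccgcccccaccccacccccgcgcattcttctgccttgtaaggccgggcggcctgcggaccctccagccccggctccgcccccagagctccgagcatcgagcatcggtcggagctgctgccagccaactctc
The Myl9 run held 1 match, 161 to 152 bases before the start, and the Acta2 and Cnn1 runs held no exact match. A stretch that departs from the motif by a base was not counted, and the CArG elements known from the Acta2 promoter depart from it in that way. Among the 20 genes of a contractile list and the 5 required genes, 21 of 25 had a promoter in the table, and 3 of their 26 promoters (those of Myl9, Myl6 and Vcl) held an exact match in the 250 bases before the start, against 482 of 32851 promoters, or 1.47%, in the whole table.

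Of the non-myocyte barcodes, the members made up 10.9% and 10.7% (E12.5), 6.12% and 5.83% (E14.5), and 3.72% and 3.91% (E16.5). As means these are 10.8% ± 0.189 (SD, n = 2), 5.97% ± 0.207 and 3.81% ± 0.134, so that the share was lower at each later embryonic stage by more than the spread between libraries. At P3 it was 14.9% (exact 95% binomial interval 13.7 to 16.3%). The wells of P3 differed: 112 of 1326 non-myocyte barcodes (8.45%, interval 7.01 to 10.1%) were members in well 1 and 320 of 1565 (20.4%, interval 18.5 to 22.5%) in well 2. Intervals cover counting error only, and no test was run on the shares, because the thresholds that chose the members also set them. The thresholds count UMIs, and the median depth of the other non-myocytes was 17859 and 16394 UMIs at E12.5 and 13308 and 9664 UMIs at E16.5. With every barcode thinned to 5000 UMIs the mean shares were 4.29%, 3.17%, 1.13% and 8.81% in order of age, and with thresholds set in CPM they were 7.02%, 5.21%, 2.78% and 13.1%. The order of the stages was the same under both. It changed as a share of all barcodes, where P3 (4.27%) lay below E12.5 (5.10%), and with Myh11 required, where E16.5 (0.329%) lay above E12.5 (0.239%) and E14.5 (0.101%).

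**Figure D1:**
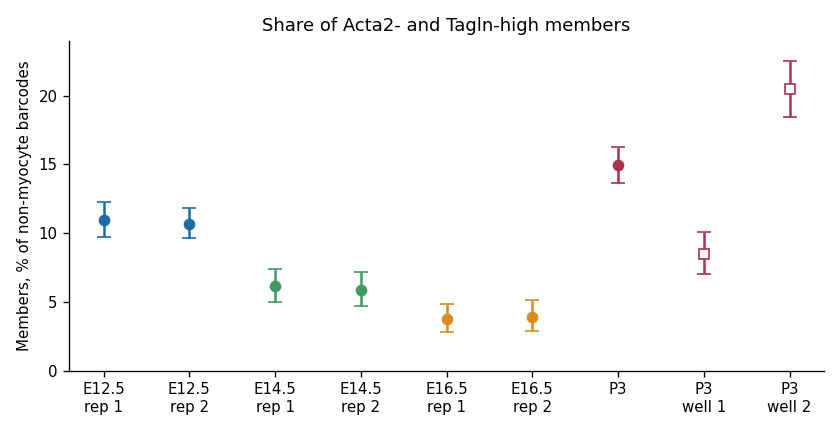
Members as a percentage of the non-myocyte barcodes (vertical axis) in each library and, as open squares, in each well of the P3 matrix; bars are exact 95% binomial intervals. The replicates of a stage lie side by side in all 3 embryonic stages, while the P3 wells lie at 8.45% and 20.4%.

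At the edges of the selection, 31 to 51 members at E12.5, 8 to 11 at E14.5 or E16.5 and 35 at P3 held exactly 3 UMIs of Myh11, Eln and Cnn1, and 48 to 53, 9 to 16 and 35 barcodes were left out with 2 UMIs. The pericyte limit removed 76 barcodes at P3 and 1 to 11 in an embryonic library. The genes that chose the members are described by their levels, with no test. Acta2 reached 1499 and 1317 CPM (E12.5), 1454 and 1728 CPM (E14.5), 1933 and 1347 CPM (E16.5) and 3098 CPM (P3). Tagln, an actin-binding protein of smooth muscle, stood at 1697 and 1468 CPM (E12.5), 1313 and 1521 CPM (E14.5), 1285 and 835 CPM (E16.5) and 2374 CPM (P3). Both were above the other non-myocytes, by 9.29- to 19.4-fold for Acta2 and 13.5- to 22.6-fold for Tagln over the 7 matrices.

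Elastin was lowest at E12.5, the stage at which calponin was highest. Eln, the core protein of elastic fibres, was at 442 and 521 CPM (E12.5), 1377 and 1781 CPM (E14.5), 899 and 766 CPM (E16.5) and 6385 CPM (P3). Cnn1, which restrains actomyosin, was at 298 and 271 CPM (E12.5), 195 and 179.6 CPM (E14.5), 95.5 and 61.2 CPM (E16.5) and 100.9 CPM (P3). Cardiomyocyte barcodes of the same matrices carried both genes too, with 532 to 1429.8 CPM of Acta2 and 13.2 to 285 CPM of Cnn1, the lowest at P3. In both E14.5 libraries Cnn1 was at 192 and 195 CPM in cardiomyocytes, beside 195 and 179.6 CPM in the members. Barcodes of at most 100 UMIs, which hold mainly free RNA, carried 739.6 to 1006 CPM of Acta2 and 2724 to 5649 CPM of Tnnt2 in the embryonic libraries. The members held 131 to 297 CPM of Tnnt2 and the other non-myocytes 96.4 to 244 CPM.

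**Figure D2:**
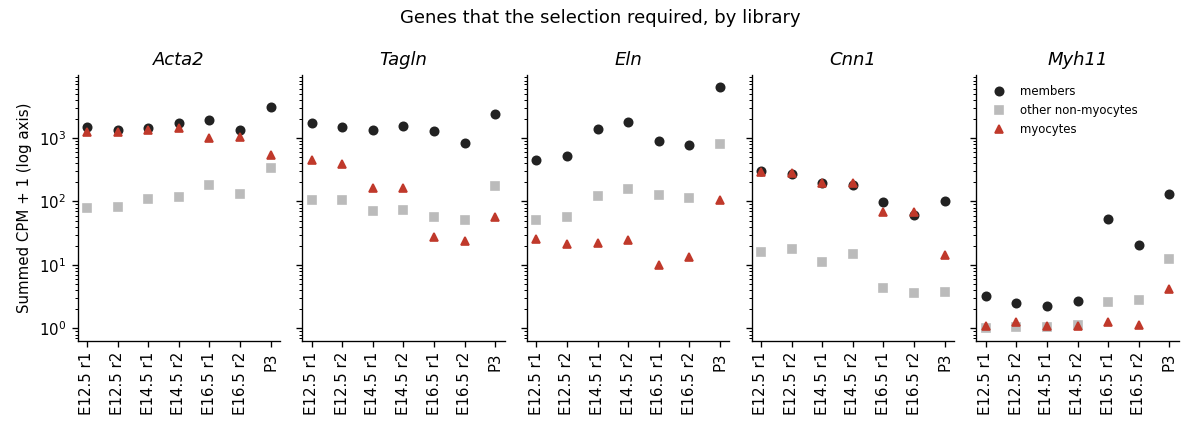
Summed CPM plus 1 (log axis) of the 5 genes of the required sums, per library (r1 and r2 are replicates), in members, other non-myocytes and myocytes. Acta2, Tagln, Eln and Cnn1 are high in the members throughout, Acta2 and Cnn1 lie close to them in myocytes of E12.5 and E14.5, and Myh11 stays under 3 CPM in the members until E16.5.

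Smooth muscle myosin did not follow the other required genes. Myh11 summed to 2.28 and 1.504 CPM (E12.5), 1.28 and 1.73 CPM (E14.5), 52.9 and 19.9 CPM (E16.5) and 128 CPM (P3), and a UMI of it was present in 2.63% and 1.78% (E12.5), 1.02% and 2.38% (E14.5), 11.1% and 6.25% (E16.5) and 18.5% (P3) of the members. Of the other non-myocytes 0 to 3.86% held a Myh11 UMI. The median depth was 9237 to 17859 UMIs in the other non-myocytes and 11130.5 to 19048.5 UMIs in the members. Most members therefore passed through Eln and Cnn1: at E12.5, 154 of 266 and 214 of 337 members held both, and at P3 265 of 432 held Eln without Cnn1.

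The other contractile markers differed in how often they were found. Myl9 and Tpm2, a myosin light chain and a tropomyosin, were found in 87.5 to 98.5% and 95.5 to 97.9% of the members of a matrix. The shares were 32.5 to 60.6% and 32.4 to 59.2% in the other non-myocytes and 90.2 to 99.2% and 34.6 to 65.5% in cardiomyocyte barcodes. In the embryonic libraries Myl9 was at 863 to 1560 CPM in cardiomyocyte barcodes and 363 to 741 CPM in the members. At P3 it was at 675 CPM in cardiomyocyte barcodes and 1281 CPM in the members. Mylk, the kinase that switches smooth muscle myosin on, was found in 3.01% and 5.04% (E12.5), 11.2% and 10.7% (E14.5), 29.6% and 25.0% (E16.5) and 33.1% (P3) of the members and in 7.52% and 7.01% (E12.5), 10.8% and 8.54% (E14.5), 16.2% and 12.4% (E16.5) and 24.9% (P3) of the other non-myocytes. Lmod1, an actin nucleator of smooth muscle, was found in 6 of 48 members of E16.5 replicate 2, in 15.1 to 27.8% of those of the other matrices and in 0.147 to 3.21% of the other non-myocytes. Myocd, the coactivator of serum response factor that is held to be the master regulator of smooth muscle genes, was found in 4.17 to 8.27% of the members, against 35.4 to 52.1% of the cardiomyocyte barcodes and 0.677 to 2.52% of the other non-myocytes.

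Sox9 and Postn were found in most members. Sox9, a transcription factor of cartilage and of the valve cushions, was found in 70.7% and 75.1% (E12.5), 77.6% and 69.0% (E14.5), 63.0% and 66.7% (E16.5) and 61.8% (P3) of the members, against 31.7 to 37.2% of the other non-myocytes. Postn, a matrix protein of cushion mesenchyme and fibroblasts, was found in 71.4 to 92.6% of the members and 42.9 to 80.3% of the others. Tcf21, a transcription factor of cardiac fibroblasts and their epicardial precursors, was found in 21.1% and 24.9% (E12.5), 12.2% and 14.3% (E14.5), 40.7% and 45.8% (E16.5) and 68.1% (P3) of the members and in 17.4% and 16.1% (E12.5), 12.6% and 14.1% (E14.5), 30.7% and 26.5% (E16.5) and 48.3% (P3) of the other non-myocytes, so that at E14.5 the shares lay side by side. Sox9 and Tcf21 shared 53 of 266 and 70 of 337 members at E12.5 and 224 of 432 at P3. Isl1, which marks heart progenitors and part of the outflow tract, was found in 23.7% and 20.2% (E12.5), 11.2% and 7.14% (E14.5), 0% and 0% (E16.5) and 1.62% (P3) of the members and in 0.286 to 4.24% of the others.

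**Figure D3:**
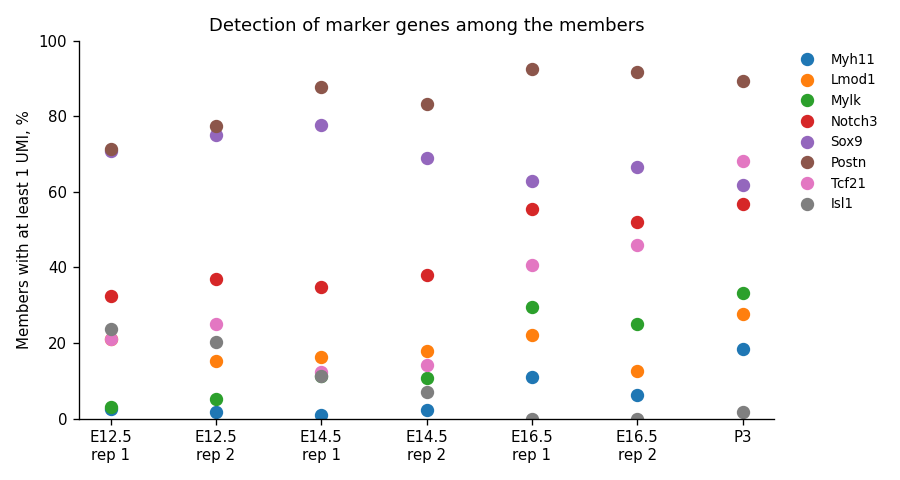
Percentage of members with at least 1 UMI of each gene (vertical axis) in each library; points of one colour are one gene. Postn and Sox9 lie above 60% throughout, Tcf21 reaches 68.1% at P3, Isl1 goes from 23.7% and 20.2% at E12.5 to 0 in both E16.5 libraries, and Myh11 is found in at most 18.5%.

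Outside the genes of the selection, 20 genes were set apart most evenly from the other non-myocytes in all 7 matrices. These values follow from the choice of members and are a description. Sfrp2, a secreted Wnt modulator, led with 783 and 751 CPM (E12.5), 1721 and 1156 CPM (E14.5), 656 and 621 CPM (E16.5) and 1197 CPM (P3), which was 5.49- to 12.7-fold the other non-myocytes. Contractile genes among the 20 were Actg2, the enteric smooth muscle actin (12.48- to 61.9-fold), Myl9 (5.47- to 8.01-fold), Tpm2 (3.76- to 7.91-fold), the actinin partner Pdlim3 (3.09- to 3.68-fold) and the filament protein Nexn (2.90- to 5.74-fold). Matrix genes were Fbln5, which tethers elastin (4.92- to 19.6-fold), the elastin cross-linker Loxl1 (2.56- to 3.56-fold), the microfibril protein Mfap4 (2.47- to 4.19-fold), Col12a1 (3.59- to 8.39-fold), Postn (2.44- to 3.16-fold), Thbs1 (2.87- to 6.38-fold) and Cthrc1 (2.89- to 6.90-fold). The growth factor Tgfb2 (2.79- to 4.10-fold), the receptor Tnfrsf12a (3.04- to 7.30-fold) and the activin-binding Fstl3 (4.49- to 7.26-fold) belonged to the same group, with Car3, Adamts2, Lgals1 and P4ha3. Among genes of at least 50 CPM in the members of at least 1 matrix, the 5 furthest below the others were Cd93, Mest, Igfbp5, Gng11 and Eng. Genes scarce in the members of every matrix could not enter this ranking. Cd93 and Eng are endothelial genes, and the selection had removed endothelial barcodes. Mest, an imprinted gene, stood at 149.8 and 163 CPM (E12.5), 111 and 181 CPM (E14.5), 211 and 265 CPM (E16.5) and 162 CPM (P3), against 646 and 672 CPM (E12.5), 1009.7 and 1043 CPM (E14.5), 802 and 991 CPM (E16.5) and 636 CPM (P3) in the other non-myocytes.

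Members with more elastin than calponin transcripts were more frequent at later stages. Those with more Eln than Myh11 and Cnn1 UMIs made up 40.2% and 44.2% (E12.5), 74.5% and 77.4% (E14.5), 81.5% and 87.5% (E16.5) and 90.05% (P3). Both replicates of a stage lay above both of the stage before. The split uses genes of the selection and was not tested. In the other non-myocytes Eln went from 49.5 and 55.5 CPM (E12.5) to 126 and 114 CPM (E16.5) and 797 CPM (P3). Cnn1 went there from 15.1 and 17.0 CPM to 3.38 and 2.59 CPM and 2.78 CPM, so the shift was not particular to the members. Of 4203 genes compared between the Eln-led members and those led by Myh11 and Cnn1, 139 were higher and 120 lower with Eln in all 7 matrices, which is given as a description. Those led by Myh11 and Cnn1 numbered 152 and 179 (E12.5), 23 and 16 (E14.5), 7 and 5 (E16.5) and 43 (P3), so the E16.5 values rest on few barcodes. Osr1, a transcription factor of mesenchyme, was at 89.7 and 76.1 CPM at E12.5 in the Eln-led barcodes against 7.28 and 5.21 CPM in those led by Myh11 and Cnn1, 29.9 and 28.6 against 4.37 and 11.96 CPM at E14.5, 20.4 and 41.1 against 0 and 0 CPM at E16.5, and 178 against 2.46 CPM at P3. Fibrillin 1 (Fbn1), the scaffold of elastic fibres, was at 239.6 and 241 CPM at E12.5 in the Eln-led barcodes against 99.99 and 105 CPM in those led by Myh11 and Cnn1, 202 and 189 against 118 and 95.6 CPM at E14.5, 345 and 297 against 215 and 145 CPM at E16.5, and 560.4 against 187 CPM at P3. Smoc2 and Col1a2 also stood higher with Eln in each matrix. Other matrix genes, such as Cthrc1, Col5a2, Dcn and Bgn, were higher with Eln in some matrices and lower in others. On the other side stood Csrp1, a smooth muscle LIM protein, at 394 and 377 CPM at E12.5 in the Eln-led barcodes against 563 and 557 CPM in those led by Myh11 and Cnn1, 512 and 526 against 756 and 809 CPM at E14.5, 435 and 466 against 699 and 811 CPM at E16.5, and 555 against 1562 CPM at P3. Nes, Actc1, Bmp2 and Igfbp7 were likewise lower with Eln in each matrix. Other contractile genes were mixed. Cald1 was higher with Eln in the E12.5 and E14.5 libraries and lower at E16.5 and P3, Des differed in direction between matrices, and Actg2 was lower with Eln except in E14.5 replicate 2. Actc1, the cardiac actin, is also a marker of free cardiomyocyte RNA. Per Tnnt2 UMI the members held 5.50 and 4.61 UMIs of it (E12.5), 1.96 and 1.93 (E14.5) and 2.36 and 1.82 (E16.5). Barcodes of at most 100 UMIs held 2.83 and 3.16, 2.09 and 2.18, and 1.37 and 1.41. The members lay above these barcodes, and above myocytes, at E12.5 and E16.5 and below both at E14.5. The other non-myocytes also lay above these barcodes at E16.5, with 261 and 248 CPM of Actc1 beside 161 and 149 CPM of Tnnt2. The selection limited Tnnt2 in both classes of non-myocytes and not in these barcodes. The ratio therefore cannot tell the source of Actc1 in the members, which was not tested. At P3 the ratio was 1.05 in the members and 1.12 in myocytes.

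Between E12.5 and E16.5, 1594 of 8759 tested genes (18.2%) passed an adjusted p of 0.05 in the members by the quasi-likelihood test of edgeR, adjusted after Benjamini and Hochberg as for each adjusted p here, 912 higher (10.4%) and 682 lower (7.79%) at E16.5. With library sizes as the only scaling, 800 were higher and 842 lower. Dpt led the named genes that rose, and Penk led those that fell other than the globins. Dpt, dermatopontin of the collagen matrix, was at 0.9504 and 0.752 CPM at E12.5 and 397 and 376 CPM at E16.5 (log2 fold change 8.83 ± 0.24 SE, adjusted p = 1.89e-14). Dcn, the collagen-binding proteoglycan decorin, was at 66.5 and 46.6 CPM at E12.5 and 1757 and 2889 CPM at E16.5 (log2 fold change 5.41 ± 0.21 SE, adjusted p = 3.43e-12). Ogn, Aspn, Col14a1, Col6a2, Itih5, Anxa1, Gstm1 and Gm13889 complete the 10 leading rises, with log2 fold changes of 3.64 to 5.57. Leading genes were taken among called genes with a mean of at least 50 CPM over the 4 libraries compared and with libraries that did not overlap, so genes with a lower mean, such as Mustn1, were not among them. In all 10, E14.5 lay between E12.5 and E16.5. At P3 the levels were 682 CPM for Dpt, 2271 CPM for Dcn and 996 CPM for Aspn.

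**Figure D4:**
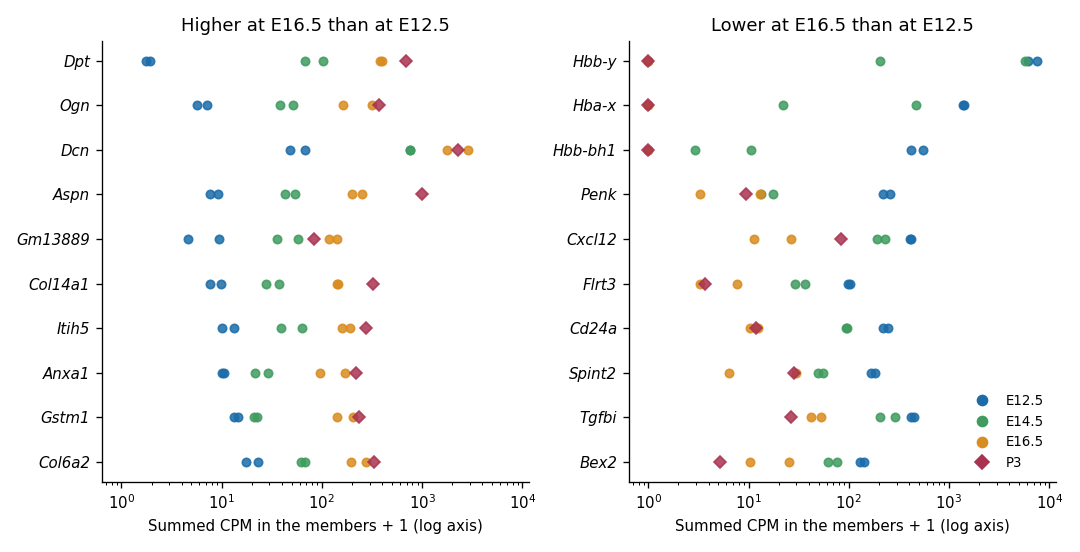
Summed CPM plus 1 in the members (log axis) for the 10 genes with the largest rise and the 10 with the largest fall from E12.5 to E16.5 among called genes with a mean of at least 50 CPM and libraries that did not overlap; circles are libraries and diamonds the P3 matrix. E14.5 lies between E12.5 and E16.5 for every rising gene; for the 3 globin genes both E16.5 libraries and P3 lie at 0 and overlap, and the E14.5 libraries lie apart.

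The count moved with 1 library: without E16.5 replicate 1, 1009 genes passed. Among the 10 leading falls, Penk, the opioid precursor proenkephalin, was at 258 and 217 CPM at E12.5 and 2.30 and 11.97 CPM at E16.5 (log2 fold change -5.05 ± 0.29 SE, adjusted p = 2.96e-10). Cxcl12, a chemokine that guides coronary vessels, was at 410.4 and 418 CPM at E12.5 and 10.4 and 25.3 CPM at E16.5 (log2 fold change -4.52 ± 0.20 SE, adjusted p = 2.12e-11). Cd24a was at 246 and 221 CPM at E12.5 and 11.5 and 9.31 CPM at E16.5, Tgfbi at 415 and 443 CPM at E12.5 and 51.8 and 41.2 CPM at E16.5, and Flrt3, Spint2 and Bex2 fell by 4.45, 3.21 and 2.89 on the log2 scale. The other 3 were the embryonic globins Hbb-y, Hba-x and Hbb-bh1, which erythroid cells make. They stood at 0 UMIs in both E16.5 libraries, against 7479 and 6180.2 CPM of Hbb-y at E12.5, with 73728 and 71330.2 CPM in the other non-myocytes. Of the E12.5 members, 3 of 266 and 4 of 337 were above 10% globin. Without them all globin transcripts summed to 2151 and 2013 CPM, in place of 17140 and 14702 CPM. Leaving out barcodes above 10% globin, 1661 genes passed.

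The contractile list held 18 tested genes, of which 6 rose and 2 fell (all genes tested: 10.4% and 7.79%), with a median log2 change of 0.39 against 0.0017 over all genes. Mylk was at 2.47 and 2.86 CPM at E12.5 and 57.5 and 39.9 CPM at E16.5 (log2 fold change 4.24 ± 0.31 SE, adjusted p = 7.89e-09). Mustn1, a small protein of muscle that is high in arterial smooth muscle, was at 1.52 and 1.20 CPM at E12.5 and 65.6 and 69.2 CPM at E16.5 (log2 fold change 5.66 ± 0.30 SE, adjusted p = 1.32e-10). At E16.5 it was found in 14 of 54 and 8 of 48 members, with up to 15 and 22 UMIs in a barcode. Of the other non-myocytes 18.0% and 17.4% held it at E16.5, and they stood at 14.3 and 12.3 CPM at E12.5 and 28.8 and 31.3 CPM at E16.5. The integrin Itga8 was at 4.37 and 5.27 CPM at E12.5 and 28.8 and 26.6 CPM at E16.5, the myosin phosphatase subunit Ppp1r12b at 4.18 and 4.51 CPM at E12.5 and 20.7 and 15.96 CPM at E16.5, and Smtn and Ppp1r14a rose by 0.83 and 0.82. Libraries of the stages did not overlap for these genes. Tpm1, a tropomyosin, was at 1260.4 and 1174 CPM at E12.5 and 674 and 674 CPM at E16.5 (log2 fold change -0.79 ± 0.12 SE, adjusted p = 8.41e-05). Myl9 was at 741 and 676 CPM at E12.5 and 552 and 407 CPM at E16.5 (log2 fold change -0.49 ± 0.15 SE, adjusted p = 0.0237). With members chosen again after thinning, 17 and 10 of them at E16.5, its change was 0.50 (adjusted p = 0.0862). Without E12.5 replicate 1 or E16.5 replicate 2 the change of Myl9 was smaller, at -0.43 or -0.26. Tpm2, Cald1, Actg2 and Lmod1 did not pass (adjusted p = 0.0681, 0.0713, 0.599 and 0.156).

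The elastic fibre list changed in 14 of 18 tested genes, 11 higher and 3 lower (all genes tested: 10.4% and 7.79%), with a median of 0.67. Mgp, an inhibitor of vessel wall calcification, was at 688 and 663 CPM (E12.5), 1796 and 1848 CPM (E14.5), 2649.9 and 2424 CPM (E16.5) and 2548 CPM (P3) (log2 fold change 1.97 ± 0.12 SE, adjusted p = 4.39e-10 for E16.5 against E12.5). Its P3 level joined 4296 CPM in well 1 and 1882 CPM in well 2, which lie on either side of the E16.5 libraries. Loxl1, Mfap4, Fbn1 and Mfap5 rose by 1.37, 1.29, 1.00 and 4.18. Ltbp2 had 0 and 1 UMI in the E12.5 libraries and 35.7 and 11.97 CPM at E16.5. Fbln5 was at 481 and 455 CPM (E12.5), 585 and 581 CPM (E14.5), 189.9 and 205 CPM (E16.5) and 409.6 CPM (P3) and fell (log2 fold change -1.19 ± 0.11 SE, adjusted p = 1.92e-07), its libraries not overlapping between E12.5 and E16.5. Ltbp1, which stores latent TGF-beta, and Fbln2 fell by 1.66 and 0.78. The whole list summed to 3939 and 3945 CPM at E12.5 and 6469 and 6473 CPM at E16.5. In the other non-myocytes the sum rose too, from 1598 and 1562 CPM to 2850 and 2785 CPM. Between the 2 classes the change differed towards the members in 6 of 18 genes and towards the others in 6 (all genes tested: 2.74% and 2.57%). The median difference was 0.07 on the log2 scale, beside -0.05 over all genes.

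Collagen and other matrix genes rose in 17 of 20 and fell in 2 (all genes tested: 10.4% and 7.79%), with a median of 1.72. Col1a1 was at 308 and 402 CPM (E12.5), 703 and 649 CPM (E14.5), 1957 and 1902 CPM (E16.5) and 2289 CPM (P3) and Col1a2 at 427 and 443 CPM (E12.5), 964 and 953 CPM (E14.5), 2588 and 2286 CPM (E16.5) and 2904 CPM (P3). Their rises were 2.50 ± 0.14 and 2.55 ± 0.13 on the log2 scale. Col6a1, Col6a2 and Col8a1, of the microfibrillar and short-chain collagens, rose by 3.51, 3.64 and 4.78, and Postn by 2.12. The basement membrane collagen Col4a1 was at 47.7 and 52.1 CPM at E12.5 and 456 and 295 CPM at E16.5, with 161 and 187 CPM at E12.5 and 455 and 529 CPM at E16.5 in the other non-myocytes. Versican (Vcan), the space-filling proteoglycan of the cushions, was at 362 and 394 CPM at E12.5 and 149.6 and 165 CPM at E16.5 and Col18a1 at 117 and 134 CPM at E12.5 and 62.1 and 51.9 CPM at E16.5, and both fell (by 1.21 and 1.07). The summed list stood at 5968 and 5942 CPM at E12.5, 17943 and 18583 CPM at E16.5 and 25876 CPM at P3. In the other non-myocytes it rose too, from 3438 and 3521 CPM to 10504.5 and 10278 CPM and 16223.5 CPM.

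The Notch list, the pathway through which endothelium matures the vessel wall, rose in 6 of 9 tested genes and fell in none (all genes tested: 10.4% and 7.79%). Its change differed from that in the other non-myocytes in 2 of 10 genes, each towards the members. Over all genes of that test 2.74% differed towards the members and 2.57% towards the others. The median difference was -0.01 on the log2 scale, beside -0.05 over all genes. Notch3, the smooth muscle receptor, was at 22.8 and 26.3 CPM (E12.5), 34.6 and 39.7 CPM (E14.5), 66.7 and 65.2 CPM (E16.5) and 111 CPM (P3) (log2 fold change 1.48 ± 0.19 SE, adjusted p = 1.3e-05). In the other non-myocytes Notch3 rose too, from 6.95 and 9.86 CPM at E12.5 to 32.7 and 32.4 CPM at E16.5. Its target Heyl was at 14.3 and 18.1 CPM at E12.5 and 85.1 and 51.9 CPM at E16.5 (log2 fold change 2.15 ± 0.24 SE, adjusted p = 1.89e-06), and Hey1, Hes1, Notch1 and the feedback inhibitor Nrarp rose by 1.10, 0.83, 1.27 and 1.79. Nrarp did not pass without E16.5 replicate 1 (adjusted p = 0.0797), and Jag1, a ligand, did not pass (0.34 ± 0.30, adjusted p = 0.489). Of 16 tested growth factor and vasoactive genes 7 rose and 2 fell. Gucy1a3 and Gucy1b3, the subunits of the nitric oxide receptor that relaxes vessels, rose by 2.85 and 0.91, with Gucy1a3 at 29.3 and 25.0 CPM at E12.5 and 209 and 162 CPM at E16.5. Igfbp7, Tgfb3, Pdgfrb and Pdgfa rose by 1.40, 1.27, 0.87 and 0.81. Bmp4 was at 170.1 and 193 CPM at E12.5 and 72.5 and 61.2 CPM at E16.5 (log2 fold change -1.37 ± 0.17 SE, adjusted p = 7.93e-06), and Tgfb1 fell by 0.83. Igfbp7 went on to 3690.4 CPM at P3.

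Transcription factors fell more often than they rose, 12 against 6 of 25 tested genes (all genes tested: 7.79% and 10.4%), with a median of -0.67. Isl1 was at 26.0 and 17.8 CPM (E12.5), 12.2 and 6.05 CPM (E14.5), 0 and 0 CPM (E16.5) and 1.33 CPM (P3). Pooled over the libraries it was at least 11.6-fold lower at E16.5, where 0 UMIs were found, taking 3 counts over both libraries as the limit. Hand1, a cardiac progenitor factor, was at 33.1 and 24.1 CPM (E12.5), 8.98 and 14.7 CPM (E14.5), 0 and 0 CPM (E16.5) and 0.569 CPM (P3) and by the same measure at least 15.2-fold lower. Gata5 had 1 and 0 UMI at E16.5, after 19.2 and 24.1 CPM at E12.5. Prrx2, Foxc1, Foxc2, Sox11, Hand2, Gata6 and Sox4 fell by 1.94, 2.40, 1.42, 1.43, 1.03, 0.80 and 0.67. In the other direction, Nr2f2, a vein and atrium factor, was at 9.50 and 10.53 CPM at E12.5 and 72.5 and 51.9 CPM at E16.5 (log2 fold change 2.70 ± 0.23 SE, adjusted p = 7.51e-08). Ebf1 was at 96.7 and 88.6 CPM at E12.5 and 396 and 352 CPM at E16.5 (log2 fold change 2.08 ± 0.11 SE, adjusted p = 1.47e-10), and Prrx1, Klf4, Tbx20 and Mef2c rose by 1.15, 1.00, 0.81 and 0.78. Srf, the factor of the CArG box, was at 17.5 and 22.6 CPM at E12.5 and 18.4 and 22.6 CPM at E16.5 and did not pass (adjusted p = 0.904).

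Marker lists of other cell types moved too, and their part in the results above was not tested. Over all tested genes 10.4% rose and 7.79% fell. Fibroblast markers rose in 5 of 6 genes, from a summed 302 and 274 CPM at E12.5 to 2737 and 3913 CPM at E16.5. The other non-myocytes went from 235 and 221 to 1669 and 1616 CPM. Tcf21 was at 19.4 and 22.4 CPM at E12.5 and 86.3 and 104 CPM at E16.5 (log2 fold change 2.23 ± 0.18 SE, adjusted p = 3.24e-08). Of 6 valve mesenchyme markers 1 rose (Postn) and 3 fell. Papss2 was at 59.3 and 52.7 CPM at E12.5 and 20.7 and 9.31 CPM at E16.5 and Twist1 at 148 and 173 CPM at E12.5 and 48.3 and 90.4 CPM at E16.5, and Twist1 did not pass with CPM or stricter thresholds or once thinned (adjusted p = 0.358, 0.188 and 0.249). Cthrc1 fell by 0.36 (adjusted p = 0.019), but its change was 0.08 and 0.09 with CPM or stricter thresholds, and it did not pass without either E12.5 replicate or without E16.5 replicate 1 (adjusted p = 0.112, 0.124 and 0.0821). Of 3 tested pericyte markers, Ndufa4l2 rose and Rgs5 fell. Ndufa4l2 was at 33.3 and 34.8 CPM (E12.5), 8.98 and 6.05 CPM (E14.5), 268 and 269 CPM (E16.5) and 309 CPM (P3). Rgs5 was at 168 and 153 CPM (E12.5), 62.2 and 44.9 CPM (E14.5), 96.7 and 53.2 CPM (E16.5) and 474 CPM (P3). Thinned to 5000 UMIs per barcode, the change of Rgs5 was 0.16. The pericyte list summed to 217 and 200 CPM, 85.9 and 82.9 CPM, 436 and 336 CPM and 856 CPM in order of stage, with its defining genes Kcnj8 and Higd1b limited by the selection.

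Of 4 tested epicardial markers 1 rose and 1 fell (all genes tested: 10.4% and 7.79%): Upk3b was at 60.8 and 43.3 CPM at E12.5 and 5.75 and 0 CPM at E16.5, and Aldh1a2, the retinoic acid enzyme, at 4.18 and 3.61 CPM at E12.5 and 18.4 and 18.6 CPM at E16.5. Of 3 tested endothelial markers Flt1 rose by 1.70 and Egfl7 and Kdr fell by 1.95 and 1.98, at 38.0 to 66.7 CPM for the summed list in every matrix. Without E16.5 replicate 1 the adjusted p was 0.114 for Flt1 and 0.293 for Kdr, and without E16.5 replicate 2 it was 0.106 for Kdr. Kdr did not pass in DESeq2 or without the barcodes marked as doublets either (adjusted p = 0.254 and 0.0547). Of 12 cardiomyocyte markers 4 fell and none rose. They were Tnni1, Myl7, Myl4 and Actc1, genes of the immature heart tube. Actc1 was at 911 and 745 CPM at E12.5 and 309.5 and 289 CPM at E16.5 in the members and 288 and 351 CPM at E12.5 and 261 and 248 CPM at E16.5 in the other non-myocytes. The change of Myl7 was 0.13 once thinned. The summed list stood at 3211 and 2677 CPM at E12.5 and 1425 and 1369 CPM at E16.5 in the members. In the other non-myocytes it stood at 1926 and 1970 CPM at E12.5 and 1525 and 1355 CPM at E16.5. No macrophage gene was abundant enough to test in the members (1.33 to 60.3 CPM summed), 1 glial gene (Fabp7) rose, and of 7 erythroid genes 2 fell. Without E16.5 replicate 1 the adjusted p of Fabp7 was 0.134.

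Of 12 imprinted growth genes, Dlk1 and Mest rose and Plagl1 fell, near the shares over all tested genes (10.4% higher and 7.79% lower). Dlk1, a fetal inhibitor of differentiation, was at 193 and 141 CPM (E12.5), 69.9 and 56.1 CPM (E14.5), 327 and 336 CPM (E16.5) and 73.2 CPM (P3) (log2 fold change 1.05 ± 0.14 SE, adjusted p = 1.32e-05), yet with stricter thresholds or thinned to 5000 UMIs its change was -0.98 (adjusted p = 0.0392) and -1.26 (adjusted p = 0.0421). Mest did not pass without E12.5 replicate 1 or without E16.5 replicate 2 (adjusted p = 0.0644 and 0.0962), nor once thinned (0.56, adjusted p = 0.396). The change of Plagl1, -0.60 (adjusted p = 0.0276), was 0.04 once thinned, and it did not pass without E12.5 replicate 1 or E16.5 replicate 1 (adjusted p = 0.14 and 0.279). Of 18 cell cycle genes 4 rose and none fell (all genes tested: 10.4% and 7.79%). They were the mitotic genes Mki67, Cenpf, Tpx2 and Hmmr. Mki67 was at 52.3 and 52.1 CPM (E12.5), 80.2 and 51.8 CPM (E14.5), 81.7 and 85.1 CPM (E16.5) and 60.1 CPM (P3) with a log2 fold change of 0.74 (adjusted p = 0.00667), and without E16.5 replicate 1 the adjusted p of Mki67, Cenpf, Tpx2 and Hmmr was 0.0748, 0.0608, 0.0735 and 0.180. Hmmr did not pass without any other of the 3 remaining libraries of the comparison either (adjusted p = 0.0766 to 0.158), nor did Tpx2 without E12.5 replicate 2 (0.0502). Without the barcodes marked as doublets, Mki67 and Hmmr did not pass (adjusted p = 0.0549 and 0.151). Once thinned, none of the 4 passed: the changes of Cenpf and Tpx2 were 0.37 and 0.60 (adjusted p = 0.715 and 0.729), and those of Mki67 and Hmmr 1.75 and 1.97 (adjusted p = 0.0561 and 0.0889). Of 13 immediate early and heat shock genes, which also respond to tissue dissociation, 9 rose and 1 fell. Fos was at 309 and 287 CPM at E12.5 and 1191 and 1287 CPM at E16.5 in the members and 194 and 203 CPM at E12.5 and 1002 and 1043 CPM at E16.5 in the others, and Klf2 at 39.3 and 32.9 CPM at E12.5 and 258 and 218 CPM at E16.5 in the members.

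The steps between stages were tested apart. From E12.5 to E14.5, 1006 genes (11.5%) passed, 574 higher (6.55%) and 432 lower (4.93%). Without E12.5 replicate 1, E12.5 replicate 2 or E14.5 replicate 1 the count was 428, 501 or 470. By the same limits, under which Dpt was too low in this step, the 5 leading rises were Dcn, Cd9, Emp1, Tm4sf1 and Dclk1, with log2 fold changes of 3.70, 2.57, 2.02, 1.84 and 1.76. The tetraspanin Cd9 was at 18.4 and 15.5 CPM at E12.5, 101.3 and 105 CPM at E14.5 and 152 and 168 CPM at E16.5. Penk fell already in this step, to 12.2 and 16.4 CPM. The collagen list rose in 15 of 20 genes and the elastic fibre list in 9 of 18.

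From E14.5 to E16.5, 527 genes (6.02%) passed, 338 higher (3.86%) and 189 lower (2.16%), and with library sizes as the only scaling the split was 262 and 251. Without E16.5 replicate 1 the count was 292. Ndufa4l2, a mitochondrial protein induced by low oxygen and high in pericytes, was at 8.98 and 6.05 CPM and 268 and 269 CPM (log2 fold change 5.21 ± 0.21 SE, adjusted p = 1.56e-11). G0s2, an inhibitor of lipolysis, was at 21.2 and 13.0 CPM and 119 and 102 CPM. Tcf21, Ogn and Gstm1 rose by 2.61, 2.59 and 3.18 in this step, and Cxcl12, Cd24a and Tgfbi fell by 3.50, 3.05 and 2.30. Once thinned to 5000 UMIs, the change of Ogn was 1.12 (adjusted p = 0.346). Thbs1 and Sfrp2 stood highest at E14.5 among the embryonic stages: Thbs1 stood at 356 and 371 CPM against 157 and 188 CPM at E12.5 and 145 and 188 CPM at E16.5.

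The change from E12.5 to E16.5 differed between the members and the other non-myocytes of the same libraries in 722 of 13601 tested genes (5.31%), 373 towards the members (2.74%) and 349 towards the others (2.57%). Once thinned to 5000 UMIs, 49 genes passed towards the members and 160 towards the others. With library sizes alone the split was 216 and 836, without the library as a block 450 genes passed, and without E16.5 replicate 1 or 2 the count was 453 or 421. Rgs5, a signalling brake of pericytes and arterial smooth muscle, was at 168 and 153 CPM at E12.5 and 96.7 and 53.2 CPM at E16.5 in the members and at 14.1 and 14.4 CPM at E12.5 and 97.5 and 79.6 CPM at E16.5 in the others. With members chosen again after thinning to 5000 UMIs, the change of Rgs5 in them was 0.16 (adjusted p = 0.784). The pericyte limit had removed 11 and 3 barcodes from the unthinned members at E16.5. Cxcl12 was at 410.4 and 418 CPM at E12.5 and 10.4 and 25.3 CPM at E16.5 in the members and 27.8 and 38.7 CPM at E12.5 and 24.7 and 22.9 CPM at E16.5 in the others. Dcn went from 100.8 and 86.9 CPM to 1095 and 1057 CPM in the others, a smaller rise than in the members by 2.04 ± 0.14 on the log2 scale. Mustn1 and Mylk also rose more in the members, by 4.68 ± 0.33 and 2.68 ± 0.34 (adjusted p = 2.79e-13 and 3.13e-07). The contractile list did not do so as a whole. Of its 20 genes 3 differed towards the members and 2, among them Tpm2 (-0.74), towards the others. Its median difference was -0.12, beside -0.05 over all genes. Fbln5, which fell in the members, was at 24.5 and 26.5 CPM at E12.5 and 31.7 and 29.5 CPM at E16.5 in the others, a difference of -1.29 ± 0.10 (adjusted p = 7.49e-12). The collagen list differed in 11 of 20 genes, 8 towards the members and 3 towards the others, and its median difference of 0.11 stood beside -0.05 over all genes.

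At P3, where Myh11 was detected most often, 80 of 432 members held at least 1 UMI of it, 30 of 112 in well 1 and 50 of 320 in well 2. A split by a gene of the selection is a description, with no test. Their medians were 8188.5 UMIs with and 11890 UMIs without Myh11. Several contractile and arterial genes, picked after their values were seen, were higher with Myh11. Mylk summed to 999 CPM with and 27.7 CPM without, Mustn1 to 1730.0 CPM with and 43.4 CPM without and Lmod1 to 427 CPM with and 20.04 CPM without. Tinagl1, an extracellular protein of vascular smooth muscle (552 against 11.9 CPM), Gja4, a gap junction protein of arteries (177 against 5.73 CPM), Ramp1, a subunit of the CGRP receptor (385 against 21.4 CPM), and the odorant receptor Olfr558 (238 against 0.881 CPM) stood with them. Markers of other cell types moved with them, the endothelial genes Cd93 (293 against 17.6 CPM) and Esam (152 against 5.95 CPM) and the pericyte genes Cspg4 (99.99 against 6.83 CPM) and Ndufa4l2 (868 against 219.6 CPM), and their part in the split was not tested. Notch3 was found in 68 of the 80, and Rgs5 was at 1736 CPM with and 272 CPM without.

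Several matrix and fibroblast genes were higher without Myh11, and others were not. Dcn was at 90.4 CPM with and 2622 CPM without, Dpt at 24.7 CPM with and 788 CPM without and Lum at 20.5 CPM with and 629 CPM without. Postn was at 353 CPM with and 2851 CPM without and Col1a1 at 585 CPM with and 2562 CPM without. Of the 80 members with Myh11, 13 held a UMI of Tcf21 and 7 one of Sox9, while over all 432 members 294 held Tcf21 and 267 Sox9. Sox9 summed to 15.1 CPM with and 202 CPM without and Tcf21 to 26.0 CPM with and 400.4 CPM without. Each of these differences had the same direction in both wells. The collagens Col4a1, Col4a2 and Col18a1 were higher with Myh11 in both wells, at 1071 against 850.5 CPM, 614 against 450.1 CPM and 76.7 against 34.8 CPM. Lox (258 against 181 CPM) and Fbln5 (503 against 395 CPM) were higher with Myh11 in well 2 and lower in well 1. The wells differed in the genes of the selection: Myh11 was at 268 CPM in well 1 and 74.7 CPM in well 2, Acta2 at 4531 and 2553 CPM, Tagln at 3802 and 1830 CPM, and Eln at 3842 and 7353 CPM. Of genes outside the selection, Tcf21 was at 240.1 and 389.8 CPM and the imprinted growth factor Igf2 at 471 and 213 CPM. In the embryo, members with Myh11 were too few to split (7 and 6 barcodes of E12.5, 1 and 2 of E14.5, 6 and 3 of E16.5).

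**Figure D5:**
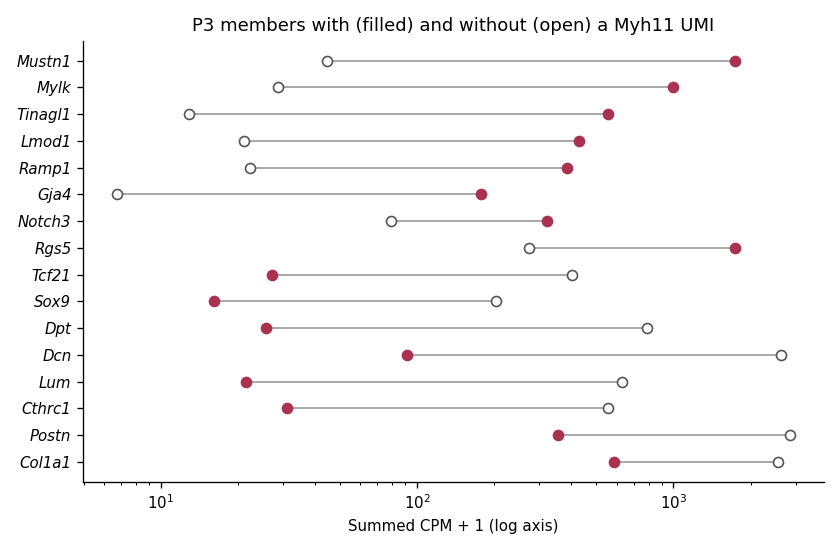
Summed CPM plus 1 (log axis) of 16 genes at P3 in the 80 members with a Myh11 UMI (filled) and the 352 without (open). The 8 contractile and arterial genes at the top lie higher with Myh11 and the 8 transcription factor and matrix genes at the bottom lie higher without it; the genes were picked after their values were seen.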

How the data were processed

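Single-cell libraries of whole hearts were made on the 10x Genomics platform after dissociation. The authors deposited matrices of UMI counts, not normalized, with 27998 genes each. The file headers name Cell Ranger 3.1.0 (3.0.0 for P3), and the submitters' processing notes name Cell Ranger 2.1.1, Seurat 3.1.1 and mm10. Digestion was with trypsin per the labels, while the study's methods give collagenase. Of 10 matrices, the 7 of whole hearts were used and the other 3 were not analysed here. The matrix of E16.5 replicate 1 and that of P3 each join 2 records of the labels. The first was counted as 1 library, and P3, whose records are labelled as 2 replicates, was summed and left out of the tests. The members and the gene lists were chosen with earlier results of these data known.

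Counts of each gene were summed over the members of a library, and over the other non-myocytes, and given as CPM of that sum. Stages were compared with edgeR 4.0.16 (R 4.3.3): TMM scaling, a filter on low counts, the quasi-likelihood test over the 6 embryonic libraries and Benjamini-Hochberg adjustment over all tested genes, with a threshold of 0.05. The interaction of class and stage had the library as a block, since each library gave both classes. Alternatives included DESeq2 1.42.0. In simulated counts for E16.5 against E12.5 (8622 genes), 96 of 100 4-fold and 20 of 100 2-fold changes were recovered, with 9 false calls. The simulated dispersion of 0.05 was larger than that of the data, the square root of which was 0.104. Changed genes were drawn from those of at least 20 CPM, so these shares need not hold for the data. Other steps used Python 3.11.15, numpy 2.4.6, pandas 2.3.3, scipy 1.17.1 and scanpy 1.11.5. Doublets were not removed. Leaving out the highest Scrublet scores (0.8% per 1000 barcodes) was an alternative, which marked 2 to 21 members of a matrix. Kept barcodes held at least 2000 UMIs, and intervals cover counting error only.

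Named genes were the 10 of the selection and the 20 highest and 5 lowest against the other non-myocytes in all 7 matrices. That ranking, on log2 of CPM plus 10, took genes of at least 50 CPM in the members of at least 1 matrix. Also named were the 10 largest rises and falls from E12.5 to E16.5 (5 each for the other comparisons) and up to 4 genes from each of 18 lists. The rises and falls were taken among called genes with a mean of at least 50 CPM over the 4 libraries compared and libraries that did not overlap. Further list genes, and those named for the elastin split and for Myh11 at P3, were chosen after their values were seen.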

Additional observations from a re-analysis of the deposited data

Results flagged for a closer look

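The change from E12.5 to E16.5 was tested for a difference between the members and the other non-myocytes of the same libraries, and 722 genes passed. For the 10 named among them, pooled levels over the libraries of a stage are given, with edgeR's log2 difference of the changes and its Benjamini-Hochberg adjusted p. Dpt went from 0.851 to 387 CPM in the members and from 3.57 to 184 CPM in the others (3.42 ± 0.37 SE, adjusted p = 1.35e-08). Dcn went from 56.6 to 2323 CPM and from 93.8 to 1076 CPM (2.04 ± 0.14, adjusted p = 6.52e-14). Cd9 went from 17.0 to 159.7 CPM in the members and from 47.0 to 101.4 CPM in the others, a difference of 2.33 ± 0.16. These matrix and membrane genes rose more steeply in the members.

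Penk stood at 237 and 7.14 CPM in the members and at 9.48 and 6.10 CPM in the others (-4.26 ± 0.46, adjusted p = 1.31e-08). Cxcl12 stood at 414 and 17.8 CPM against 33.2 and 23.8 CPM (-3.89 ± 0.30, adjusted p = 1.99e-12). For Cd24a the levels were 234 and 10.4 CPM against 129 and 51.2 CPM (-2.93 ± 0.24). Rgs5 was at 161 and 74.9 CPM in the members and at 14.3 and 88.6 CPM in the others (-3.49 ± 0.14, adjusted p = 4.51e-20). The selection placed barcodes over the limit of the pericyte genes Kcnj8 and Higd1b among the others. There Kcnj8 went from 2.22 and 2.11 CPM at E12.5 to 62.3 and 52.2 CPM at E16.5. The part of the selection in the difference of Rgs5, itself a pericyte marker, was not tested. Fabp3, a fatty acid carrier of heart muscle, was at 272 and 50.7 CPM against 56.4 and 53.9 CPM (-2.13 ± 0.15).

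Fabp5, another fatty acid carrier, was at 219 and 1030 CPM in the members and 1429 and 2009 CPM in the others (1.95 ± 0.09). Nudt4 was at 62.9 and 100.3 CPM against 324 and 106 CPM (2.48 ± 0.15). With barcodes above 10% globin left out of the others, the difference of Nudt4 was 0.37 (adjusted p = 0.159). Under the 17 alternatives, all but 3 of the 10 genes passed in the same direction each time, and Dpt, Cd24a and Nudt4 in 16 of 17. Once barcodes were thinned to 5000 UMIs, the difference of Dpt was 7.11 ± 2.39 (adjusted p = 0.118), larger than without thinning and with a larger error, and that of Cd24a was -1.51 ± 0.62 (adjusted p = 0.312).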

How the results depend on the processing

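The share of members changed with the thresholds. In order of age it was 7.02%, 5.21%, 2.78% and 13.1% with CPM thresholds, 6.27%, 3.34%, 1.71% and 9.62% with stricter UMI thresholds, 0.239%, 0.101%, 0.329% and 2.77% with Myh11 required, 4.29%, 3.17%, 1.13% and 8.81% thinned to 5000 UMIs, and 5.10%, 1.94%, 0.996% and 4.27% of all barcodes. At E12.5 it was also 11.1% under the study's mitochondrial ceiling, 12.3% without globin-rich barcodes in the denominator and 10.52% with Tnnt2 under 500 CPM. For E16.5 against E12.5, E14.5 against E12.5, E16.5 against E14.5 and the interaction, DESeq2 called 983, 431, 343 and 417 genes, and thinned barcodes gave 243, 197, 64 and 209. Stricter thresholds gave 884, 526 and 252 for the 3 stage comparisons, CPM thresholds 609 for E14.5 against E12.5. Thinning, stricter thresholds and CPM thresholds chose the members again and left fewer genes tested. Thinning left 17 and 10 members at E16.5. Otherwise the cause was not tested. Leaving out 1 library at a time gave 1009 to 1734, 428 to 1294, 292 to 477 and 421 to 953 genes, a lone library being assumed to vary like the other groups. The replicate block gave 1458, 839 and 498 genes, and without a replicate block the interaction had 450. The replicate block ended the calls of Hmmr and Kdr (adjusted p = 0.0643 and 0.0635), and DESeq2 those of Plagl1, Hmmr, Kdr and Myl7 (0.111, 0.149, 0.254 and 0.196). Library numbers share only a name: same-numbered libraries of 2 stages did not deviate together (r = -0.008, -0.009 and -0.014 over 8765 genes). From E12.5 to E16.5, 8 of 1866 gene values changed sign with the gene passing in the main or the alternative fit: Myl9 (0.50), Rgs5 (0.16), Dlk1 (-1.26), Plagl1 (0.0441) and Myl7 (0.13) once thinned, Dlk1 with stricter thresholds (-0.98), and Cthrc1 with CPM or stricter thresholds (0.0817 and 0.0855). Sign changes of genes that passed in neither fit were not counted. Once thinned, Ltbp1, Bmp4 and Myl4 did not pass and changed less, by -0.95, -0.67 and -0.23 (adjusted p = 0.121, 0.268 and 0.761) against -1.66, -1.37 and -1.45. Notch1 did not pass either (adjusted p = 0.302), at 1.33 against 1.27. With CPM thresholds Myl9, Dlk1 and Plagl1 did not pass (-0.38, 0.28 and -0.46, adjusted p = 0.113, 0.258 and 0.186), and with stricter thresholds Myl9, Plagl1 and Cenpf did not (-0.14, -0.75 and 1.10, adjusted p = 0.597, 0.0815 and 0.0672). The stage tests with Myh11 required could not be run, with 1 to 7 barcodes in an embryonic library. Leaving out globin-rich barcodes, an alternative chosen after seeing the data, gave 1661, 1099, 577 and 778 genes.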

Other observations

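The imprinted pair H19 and Igf2, fetal growth genes, stood apart at P3, which was left out of the tests. H19 was at 2366 and 2176 CPM in the members at E16.5 and at 297 CPM at P3, while the other non-myocytes held 3702 and 4169.8 CPM and 1861 CPM. Igf2, a growth factor, was at 817 and 837 CPM in the members at E16.5 and at 284 CPM at P3, against 1130.1 and 1306 CPM and 1405 CPM in the others. Both P3 wells were below the E16.5 libraries for Igf2, at 471 and 213 CPM.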
